A study of Mus musculus with 8 samples.

Results

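The respiratory chain genes of both genomes were examined in bulk RNA-Seq libraries of MCECs, a cultured line derived from the endothelium of the mouse heart. The members are the protein-coding genes of the deposited expression table whose names mark them as genes of the mitochondrial genome (the prefix mt-), as subunits of complexes I to V (Nduf, Sdh, Uqcr and *Cyc1*, Cox, Atp5), as cytochrome c, or as assembly factors named in the same way (Ndufaf, Sdhaf, Cox, Sco and Surf genes). This rule found 69 genes of the 8278 in the table (7976 of them protein-coding): 12 of the mitochondrial genome and 57 of the nuclear genome. The same names picked 125 genes in the annotation and the table together, and the other 56, *mt-Atp8* and 55 nuclear genes such as *Sdha*, *Sdhc*, *Ndufs1*, *Cox6b1* and *Surf1*, are not listed in the table and were not analysed here. The table lists genes that the authors' own comparison of these libraries selected, so members that did not differ there are outside every count below.

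The study compared 4 libraries of *Hdac3* KO MCECs, made by transduction with a CRISPR-Cas9 lentivirus that carries a guide RNA against *Hdac3*, with 4 libraries of EV MCECs, transduced with the empty-vector lentivirus. Both groups are of the same cell line, and whether the KO cells are 1 clone or a pool is not given in the sources used here. *Hdac3* encodes a histone deacetylase. Libraries were made from total RNA, by a selection of RNA not given in the sources used here, and between 15775327 and 22255684 reads per library were recovered from the table. The labels do not state whether the 4 libraries of a group came from separate cultures, so p-values measure the spread between these libraries, which may be technical. RNA of the targeted gene was lower in each KO library but not absent, with a mean normalized count of 2058 ± 85 (SD, n = 4) in EV and 1513 ± 41 (SD, n = 4) in KO MCECs. The study checked the deletion by western blot, which measures protein, while these counts measure RNA. Of 10 endothelial marker genes, 5 were in the table, with a summed level of 23.8 to 26.1 FPKM in EV and 19.7 to 20.7 FPKM in KO libraries. The other 4 fell, *Pecam1* was higher but had at most 9 reads in any library, and *Cdh5* and *Vwf* are not listed. Of 7 fibroblast and mural markers, 5 were in the table, with summed levels of 731 to 753 FPKM in EV and 537 to 554 FPKM in KO libraries. All of these fell but *Col1a1*, which rose by 0.23 on the log2 scale. Of 5 blood cell markers, *Cd68* and *Hba-a1* were in the table, with summed levels that were higher in KO, at 5.62 to 5.89 FPKM in EV libraries and at least 11.4 FPKM in each KO library. *Cd68* made up most of it, with 5.36 to 5.89 FPKM in EV and 11.1 to 12.5 FPKM in KO libraries (edgeR adjusted p = 3.8e-15). No marker of 6 for cardiomyocytes was listed. The part of these marker differences in the results below was not tested. In bulk libraries, fewer cells of one kind and less RNA per cell cannot be told apart.

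The respiratory chain passes electrons from NADH (complex I) and succinate (complex II) through complex III and cytochrome c to oxygen (complex IV), and complex V uses the resulting proton gradient to make ATP. Complexes I, III, IV and V each combine subunits of the mitochondrial genome, transcribed inside the organelle, with subunits of the nuclear genome, while complex II is nuclear only. Assembly factors are not part of the finished enzymes but insert cofactors and join the parts. Endothelial cells are known for making much of their ATP by glycolysis, and the chain also serves their biosynthesis and signalling.

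Sequences bear on the mitochondrial genes directly, because the mouse nuclear genome holds copies of mitochondrial DNA. On chromosome 1 lies a run of annotated pseudogenes that match *mt-Co2*, *mt-Atp6*, *mt-Co3*, *mt-Nd3* and *mt-Nd4l* at 99.7% identity or more over 98.99% to 99.87% of their bases, and that also cover 63.57% of *mt-Nd4* and 31.26% of *mt-Co1*. No copy of at least 99% identity was found for *mt-Nd1*, *mt-Nd2*, *mt-Nd5*, *mt-Nd6* or *mt-Cytb*. The first 60 bases of *mt-Atp6* and the matching stretch of its chromosome 1 copy, the pseudogene Gm10925, are printed to show that they hold no base that tells a read of one from a read of the other, and a 60-base stretch of *mt-Co1* and its copy Gm29216 to show the 1 base that differs over their whole match of 483 bases. *mt-Cytb* and its closest copy, Gm11410 on chromosome 4, which differ at 81 of 1142 aligned bases, are printed for contrast. Capitals mark bases that differ, and all are read 5′ to 3′ from the GRCm38 (mm10) genome.
*mt-Atp6*, chrM:7927-7986 (+): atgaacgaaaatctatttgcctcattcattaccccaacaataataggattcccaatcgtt
*Gm10925*, chr1:24614592-24614651 (-): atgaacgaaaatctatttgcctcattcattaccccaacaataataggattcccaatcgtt
*mt-Co1*, chrM:6390-6449 (+): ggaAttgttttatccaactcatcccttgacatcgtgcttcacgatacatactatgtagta
*Gm29216*, chr1:24616129-24616188 (-): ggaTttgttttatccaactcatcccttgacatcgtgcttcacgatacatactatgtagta
*mt-Cytb*, chrM:14146-14205 (+): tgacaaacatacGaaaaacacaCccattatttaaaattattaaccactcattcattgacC
*Gm11410*, chr4:80003990-80004049 (+): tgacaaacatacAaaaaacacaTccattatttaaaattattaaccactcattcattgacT

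All 12 mitochondrial members were lower in *Hdac3* KO than in EV MCECs, and their log2 fold changes ran from -1.52 to -0.24 with -0.59 as the median. Among all genes listed, 49.6% were lower at the same threshold, an adjusted p under 0.01 in edgeR's quasi-likelihood test, and the median was 0.06. Because the table was selected for differences, 96.7% of its genes passed that threshold in 1 direction or the other, so passing it separates no member from the rest, and the size of a change and its direction are described instead. A fall beyond 0.5 on the log2 scale was seen for 9 of the 12 mitochondrial members and for 23.4% of all genes. The 12 genes held 0.477%, 0.475%, 0.443% and 0.438% of all reads in EV libraries 1 to 4 and 0.331%, 0.298%, 0.294% and 0.314% in KO libraries 1 to 4. The lowest EV library was above the highest KO library.

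*mt-Co1*, the catalytic subunit of complex IV, had the highest level per length of the mitochondrial members, with a mean of 1306 FPKM in EV libraries. Its normalized counts, reads divided by the relative library size, were 38721, 39985, 36573 and 36420 in EV libraries 1 to 4 and 31305, 27998, 27231 and 29679 in KO libraries 1 to 4. The groups did not overlap, and the log2 fold change was -0.38 (standard error, SE, 0.03; adjusted p = 7.7e-13). *mt-Cytb*, the haem-bearing core subunit of complex III, lies outside the chromosome 1 copies. It had 14787, 14145, 13269 and 13202 normalized counts in EV libraries 1 to 4 and 9308, 8538, 8505 and 8812 in KO libraries 1 to 4. Its log2 fold change of -0.66 (SE 0.03, adjusted p = 1.6e-19) was the lowest among the 7 mitochondrial members that are not almost wholly inside those copies.

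Among the complex I subunits of the mitochondrial genome, which form the proton-pumping membrane arm, *mt-Nd1* changed least. Its normalized counts were 14101, 13695, 13015 and 13194 in EV libraries 1 to 4 and 12067, 10964, 11007 and 11703 in KO libraries 1 to 4, a log2 fold change of -0.24 (SE 0.03). The groups did not overlap, but the fall was smaller than that of the next gene along the genome, *mt-Nd2*, at -0.54 (SE 0.04). *mt-Nd5* fell from 7256 ± 290 to 4690 ± 285 normalized counts and *mt-Nd4* from 5568 ± 333 to 3568 ± 191 (SD, n = 4 each), log2 fold changes of -0.63 and -0.64. *mt-Nd6*, the only member encoded on the opposite strand of the mitochondrial genome, fell from 1651 ± 81 to 1120 ± 40 (SD, n = 4 each), a log2 fold change of -0.56 (SE 0.04, adjusted p = 5.7e-15). Its change thus lay inside the range of the members of the other strand. For each of these 7 genes with many reads the exact two-sided permutation test over libraries gave p = 0.0286, the smallest that 4 libraries against 4 allow.

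The 5 members that lie almost whole inside the chromosome 1 copies had few reads. *mt-Co2*, which takes electrons from cytochrome c into complex IV, had a mean level of 13.5 FPKM in EV libraries, and the ratio of *mt-Co1* to *mt-Co2*, 2 subunits of the same enzyme, was 88.1 to 106 in EV and 76.6 to 119 in KO libraries. The ratio of *mt-Nd1* to *mt-Nd3* had a mean of 72.5 in EV and 95.5 in KO libraries. *mt-Co2* counts, normalized, were 195, 184, 153 and 165 in EV libraries 1 to 4 and 181, 113, 102 and 120 in KO libraries 1 to 4. KO library 1 lay within the range of the EV libraries, so *mt-Co2* was the 1 mitochondrial member whose groups overlapped (exact permutation test, p = 0.0857), although it passed edgeR's threshold with a log2 fold change of -0.44 (SE 0.12). Without KO library 3 it no longer passed, at -0.34.

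*mt-Co3* fell from 240 ± 19 to 167 ± 35 normalized counts, *mt-Atp6*, the proton channel subunit of complex V, from 99.3 ± 9.4 to 63.4 ± 19.1, and *mt-Nd3* from 68.5 ± 9.1 to 44.2 ± 7.3 (SD, n = 4 each). *mt-Nd4l* had 11, 8, 10 and 6 reads in EV libraries 1 to 4 and 3, 4, 2 and 4 reads in KO libraries 1 to 4. The groups did not overlap, but these counts are near the limit of detection, and the log2 fold change of -1.52 had a standard error of 0.47 and did not pass the threshold without EV library 1 (-1.34) or without KO library 3 (-1.34). On the log2(FPKM + 1) scale its difference was -0.81. Of the 7 pseudogene copies, 6 are in the table. The copies of *mt-Atp6*, *mt-Co2*, *mt-Co3* and *mt-Nd3* had counts of the same order as those genes, while the copies of *mt-Co1* and *mt-Nd4*, genes that are covered only in part, had far fewer reads than their genes, at 85 to 100 (Gm29216) and 35 to 50 (Gm28439) in EV libraries. Gm28661, the copy of *mt-Co2*, had 204, 186, 176 and 243 reads in EV and 169, 107, 111 and 132 reads in KO libraries 1 to 4. All 6 copies were lower in KO MCECs, with log2 fold changes of -1.01 to -0.54, but the groups overlapped for both ends of that range, Gm28439 (exact permutation p = 0.0857) and Gm28438 (p = 0.0571). KO library 1 was the highest KO library in all 6 copies and in 10 of the 12 mitochondrial members. With the reads of the copies added to their genes the median of the mitochondrial members was -0.61, and over the 5 members with no copy of 99% identity it was -0.56, with all 5 lower and no overlap between groups. How the counting treated reads that match both places is not given in the sources used here, and its part in the low counts was not tested.

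**Figure D1:**
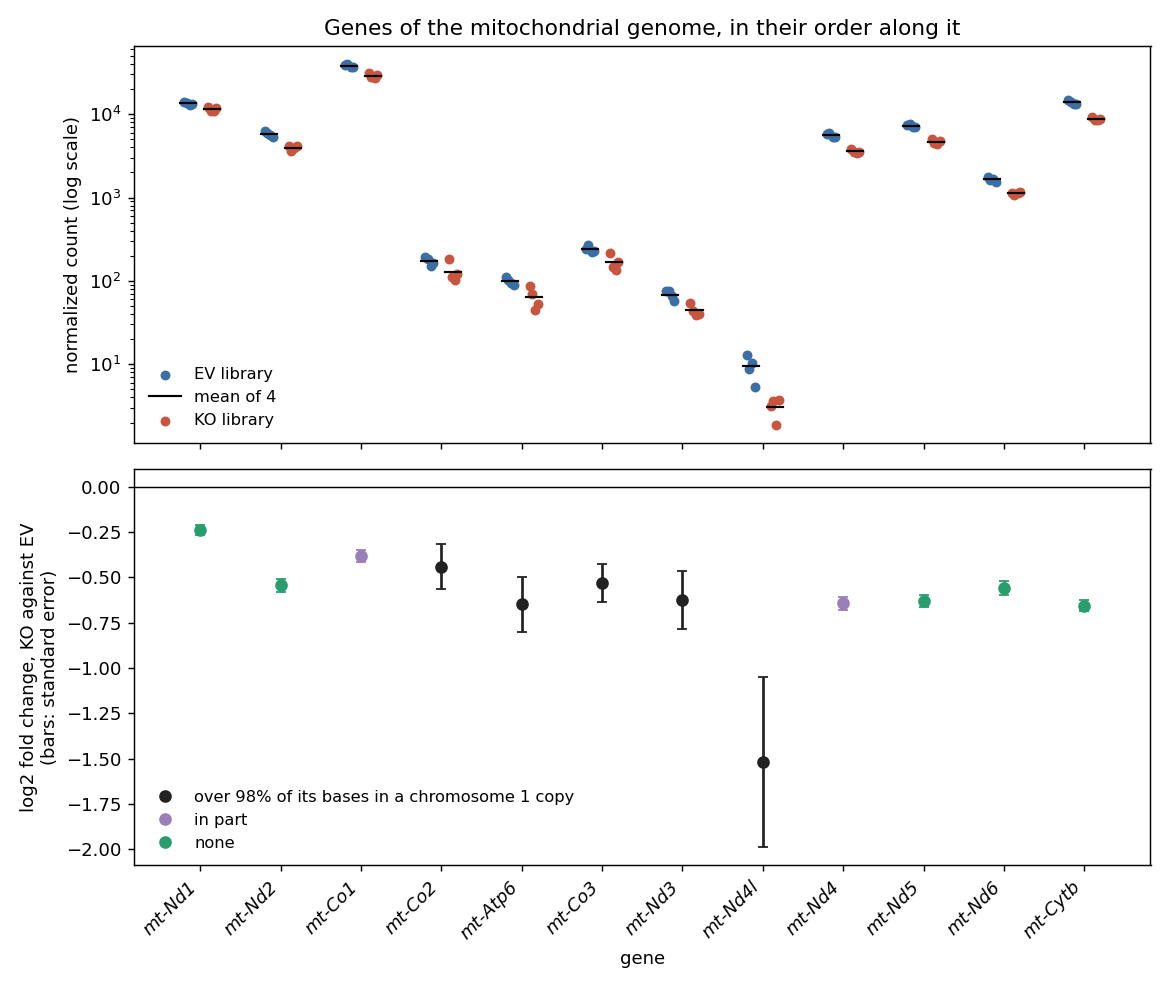
The top panel plots normalized counts (log axis) of the 12 mitochondrial members in the 4 EV and 4 KO libraries (points, with black lines for means), in gene order along the mitochondrial genome, and the bottom panel plots their log2 fold changes with standard errors, coloured by how much of each gene lies in a chromosome 1 copy. The 5 genes inside the copies have normalized counts of 1.88 to 268 while the other 7 have 1065 or more, and all 12 log2 fold changes are below 0, from -1.52 to -0.24.

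The nuclear members moved in both directions and by little. Of 57, 28 were lower (49.1%) and 26 were higher (45.6%), against 49.6% and 47.1% of all genes in the table, and 3 did not pass the threshold. Their median log2 fold change was 0.06, the same to 2 decimals as that of the table, and their median absolute change was 0.22 against 0.40. Over the 44 that share no more than 5% of their exonic bases with other genes on either strand the median was -0.11, with 23 lower and 18 higher. Genes on the opposite strand share 19.7% of the exonic bases of *Uqcrc2*, 12.8% of *Cox5a* and 12.7% of *Atp5j*. They also share 9.9% of *Cox4i1*, 9.1% of *Cox15* and 8.2% of *Atp5f1*, and all of these members were higher. For *Cox6c* and *Ndufa11*, which were lower, the shares are 7.0% and 6.4%. The part of these overlaps in the changes was not tested. Of all 57 nuclear members, only *Ndufb2* fell beyond 0.5 and only *Ndufaf6* and *Cox6a2* rose beyond 0.5. Of all genes, 23.4% fell and 15.1% rose by that much. The genes compared were selected by adjusted p-value, and the part of expression level in these contrasts of size was not tested. The groups did not overlap for 47 of the 57, compared with 91.1% of all genes. The direction of the smallest changes depended on the scaling between libraries. With library totals in place of TMM factors the median of all genes moved by -0.12, all 28 lower members were again lower, and 9 of the 26 higher members were again higher: *Atp5b*, *Atp5f1*, *Cox10*, *Cox6a2*, *Cycs*, *Ndufaf2*, *Ndufaf4*, *Ndufaf6* and *Sco1*. In that scaling 49.8% of all genes were lower and 32.3% higher.

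Within each library the ratio of mitochondrial to nuclear members does not depend on that scaling. The summed FPKM of the 12 mitochondrial members divided by that of the 57 nuclear members was 0.477, 0.495, 0.440 and 0.427 in EV libraries 1 to 4 and 0.360, 0.327, 0.318 and 0.351 in KO libraries 1 to 4. The means were 0.460 ± 0.031 and 0.339 ± 0.020 (SD, n = 4 each), and no KO library reached the lowest EV library. With the 5 members outside the chromosome 1 copies alone, the ratio went from 0.262 ± 0.017 to 0.190 ± 0.009 (SD, n = 4 each), again with no overlap.

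**Figure D2:**
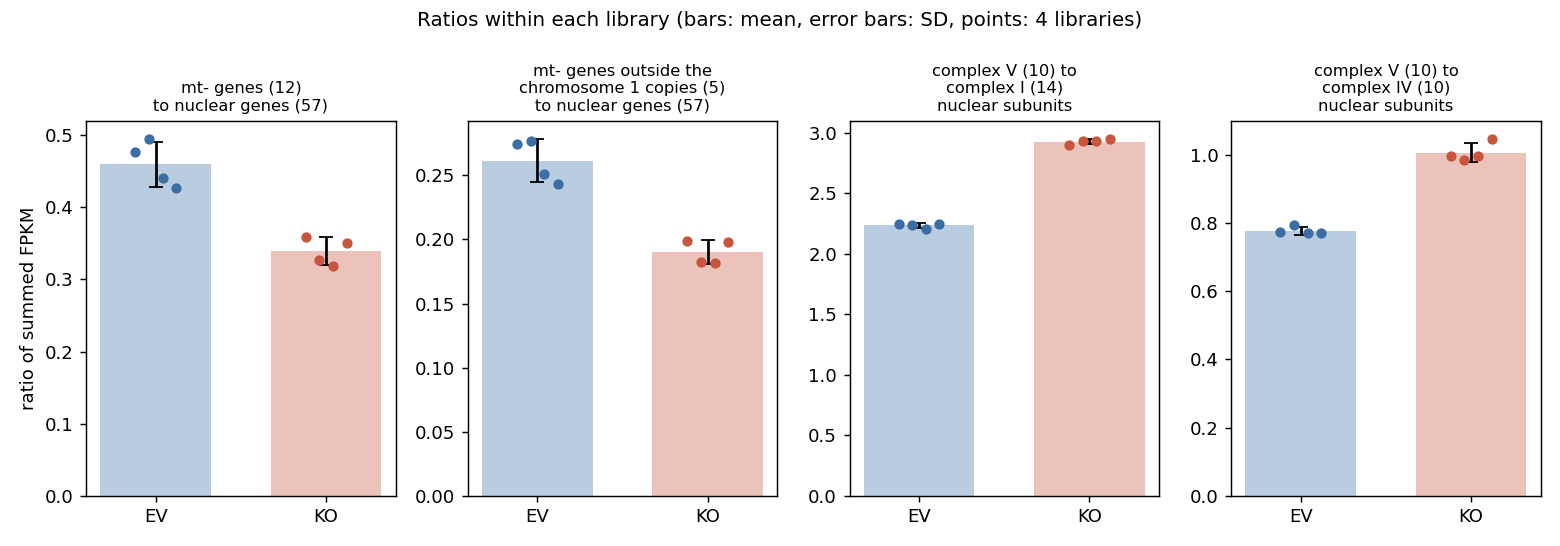
Each panel plots a ratio of summed FPKM within each library for EV and KO MCECs (bars show means of 4 libraries, error bars SD, points the libraries; axes start at 0). The mitochondrial to nuclear ratio falls from 0.460 to 0.339, and the ratio of complex V to complex I nuclear subunits rises from 2.23 to 2.93, with no overlap between groups in any of the 4 panels.

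Complex I was the complex whose nuclear subunits were most often lower. Of its 14 nuclear subunits, 11 were lower (78.6%) and 3 were higher (21.4%), beside 49.6% and 47.1% of all genes. Their median was -0.24 under TMM scaling and -0.36 under library totals, where 11 were lower and none higher, beside 49.8% and 32.3% of all genes. In the catalytic peripheral arm, *Ndufs8*, which carries iron-sulphur clusters, had 2111, 2088, 2125 and 2095 normalized counts in EV libraries 1 to 4 and 1658, 1637, 1739 and 1718 in KO libraries 1 to 4. No KO library came near the EV range, and its log2 fold change was -0.32 (SE 0.03, adjusted p = 6.4e-11). *Ndufv1*, which binds NADH, fell by 0.11 on the log2 scale, with groups that overlapped, and did not pass without KO library 2 (-0.08) or KO library 4 (-0.09). The supernumerary subunits *Ndufa1* and *Ndufa3* fell by 0.32 each, and *Ndufa6*, *Ndufa11*, *Ndufa13*, *Ndufb7* and *Ndufb10* by 0.22 to 0.26. An antisense gene, *Tssk6*, shares 30.0% of the exonic bases of *Ndufa13*, and no source says that reads were assigned by strand.

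*Ndufb2*, an accessory subunit of the membrane arm on chromosome 6 (39592574 to 39603382, plus strand), had the lowest log2 fold change of all members. Its normalized counts were 165, 143, 166 and 146 in EV libraries 1 to 4 and 32.6, 45.7, 49.0 and 59.1 in KO libraries 1 to 4. The highest KO library was far below the lowest EV library, and the log2 fold change was -1.72 (SE 0.14, adjusted p = 1.1e-13, exact permutation p = 0.0286). Its level per length was low for a complex I subunit, at 1.89 FPKM in EV libraries, while each of the other 13 had over 10 times that level. FPKM divides by the listed gene length, which is 4371 bases for *Ndufb2*. In mean normalized counts of EV libraries the gap was smaller, at 155 for *Ndufb2* and 478 for *Ndufa1*, the next lowest (419 bases). On the log2(FPKM + 1) scale the difference of *Ndufb2* was -0.93. Genes on the opposite strand share 5.37% of its exonic bases, and a gene on the same strand shares 2.58%. *Ndufc1*, *Ndufab1*, the mitochondrial acyl carrier protein, and *Ndufa7* were higher by 0.19, 0.13 and 0.10, and *Ndufa7* reversed to -0.01 with library totals and did not pass without EV library 2 (0.07) or KO library 3 (0.10).

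Complex II has 2 subunits in the table. *Sdhb*, its iron-sulphur subunit, had 2680, 2717, 2665 and 2762 normalized counts in EV libraries 1 to 4 and 2067, 2084, 2120 and 2172 in KO libraries 1 to 4. The groups were well apart (log2 fold change -0.36, SE 0.03, adjusted p = 6.6e-13). *Sdhd*, a membrane anchor, had a log2 fold change of 0.09 with overlapping groups and -0.03 with library totals, and did not pass without EV library 1, 2 or 4 or without KO library 3 or 4 (0.07 to 0.09). *Sdhaf2*, which attaches FAD to the catalytic subunit, rose by 0.21, a call that was lost with library totals.

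In complex III the supernumerary subunits *Uqcrh*, *Uqcr10* and *Uqcr11* were lower, with log2 fold changes of -0.30, -0.17 and -0.15, while *Cyc1* (cytochrome c1), *Uqcrc2* (a core subunit) and *Uqcrq*, which sits beside cytochrome b, were higher by 0.10, 0.11 and 0.19. *Uqcrc1* and the Rieske protein gene *Uqcrfs1* had values of 0.06 and 0.09 and did not pass the threshold. None of the higher complex III subunits passed with library totals, and *Cyc1* and *Uqcrc2* reversed there to -0.02 and -0.01. *Cycs*, cytochrome c itself, had 2885, 2712, 2792 and 2936 normalized counts in EV libraries 1 to 4 and 3223, 3273, 3461 and 3260 in KO libraries 1 to 4. Each KO library exceeded each EV library, with a log2 fold change of 0.22 (SE 0.03, adjusted p = 6.3e-08).

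Of 10 nuclear subunits of complex IV, 6 were lower and 4 were higher under TMM scaling, a split near that of all genes (49.6% and 47.1%). With library totals 6 were lower and 1 was higher, beside 49.8% and 32.3% of all genes. In FPKM, which also uses library totals, their summed level went from 2954 ± 113 in EV to 2463 ± 76 in KO MCECs (SD, n = 4 each). The groups did not overlap, but in that scaling the median of all genes moved by -0.12. *Cox8a* had 10363, 9893, 10247 and 10784 normalized counts in EV libraries 1 to 4 and 8549, 8533, 8600 and 7939 in KO libraries 1 to 4, a log2 fold change of -0.30 (SE 0.03). *Cox7c* (-0.28), *Cox6c* (-0.24), *Cox6a1* (-0.16), *Cox7a2* (-0.14) and *Cox5b* (-0.11) were also lower, but *Cox5b* did not pass without KO library 4 (-0.09). *Cox7a2l* (-0.33), a relative of *Cox7a2* known for its role in joining complexes III and IV, was lower too. *Cox4i1*, *Cox5a* and *Cox7b* were higher by 0.15, 0.14 and 0.17, and none of these calls held with library totals, nor that of *Cox5a* without EV library 2 (0.10). Complex IV is known for tissue-specific subunit forms, and of the heart and skeletal muscle forms only *Cox6a2* is in the table, while *Cox7a1* and *Cox8b* are not listed.

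*Cox6a2* lies on the minus strand of chromosome 7 from 128205436 to 128206366. Its normalized counts were 32.0, 45.5, 42.8 and 47.9 in EV libraries 1 to 4 and 82.1, 77.8, 114 and 77.8 in KO libraries 1 to 4. All KO libraries were above all EV libraries, and KO library 3 was apart from the other 3. The log2 fold change was 1.05 (SE 0.16, adjusted p = 4.5e-07), the highest of the members, and 0.90 without KO library 3. The ubiquitous form *Cox6a1* stayed far more abundant per length, with 612 FPKM against 3.40 FPKM in EV and 505 FPKM against 6.55 FPKM in KO MCECs. The ratio of *Cox6a1* to *Cox6a2* levels was 160 to 236 in EV libraries and 61.5 to 87.3 in KO libraries. *Itgad*, on the opposite strand, shares 10.3% of the exonic bases of *Cox6a2*.

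Counting nuclear subunits without assembly factors, complex V had the most higher members: 6 of its 10 rose, 3 fell and 1 did not pass, beside 47.1% of all genes higher and 49.6% lower. With library totals 2 were higher and 3 lower and the median was 0.02, beside 32.3% and 49.8% of all genes. *Atp5b*, the catalytic beta subunit, on chromosome 10 from 128083273 to 128090391, had the most reads of the nuclear members. Its normalized counts were 32218, 32084, 32702 and 33102 in EV libraries 1 to 4 and 44866, 44357, 44959 and 44662 in KO libraries 1 to 4. The KO values lay close together and far above the EV values, with a log2 fold change of 0.46 (SE 0.02, adjusted p = 5.1e-19) and of 0.34 with library totals. The other F1 subunits *Atp5a1* (alpha) and *Atp5c1* (gamma) rose by 0.15 and 0.18, and *Atp5f1*, a peripheral stalk subunit, by 0.20. Of these 3, only *Atp5f1* passed with library totals. *Atp5j* rose by 0.13 with overlapping groups, a call that was lost with library totals and without EV library 3. *Atp5j2* had a value of 0.09 that did not pass. *Atp5e*, the F1 epsilon subunit, and *Atp5k* fell by 0.16 and 0.24, both with overlapping groups, and *Atp5k* did not pass without KO library 4 (-0.17).

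The c subunits of the rotor are encoded by paralogs that yield the same mature protein, and 2 of these genes are in the table. *Atp5g2* fell from 2782 ± 109 to 2274 ± 121 normalized counts, while *Atp5g1* went from 3026 ± 139 to 3330 ± 124 (SD, n = 4 each), log2 fold changes of -0.29 and 0.14. The groups of *Atp5g1* overlapped, and its value was 0.02 with library totals. The summed FPKM of complex V divided by that of complex I, both over nuclear subunits, was 2.23 ± 0.02 in EV and 2.93 ± 0.02 in KO MCECs (SD, n = 4 each), and without *Atp5b* 1.36 ± 0.02 and 1.58 ± 0.01. The ratio of complex V to complex IV nuclear subunits was 0.777 ± 0.012 and 1.01 ± 0.03. No group overlapped in these ratios, which the scaling between libraries cannot change.

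**Figure D3:**
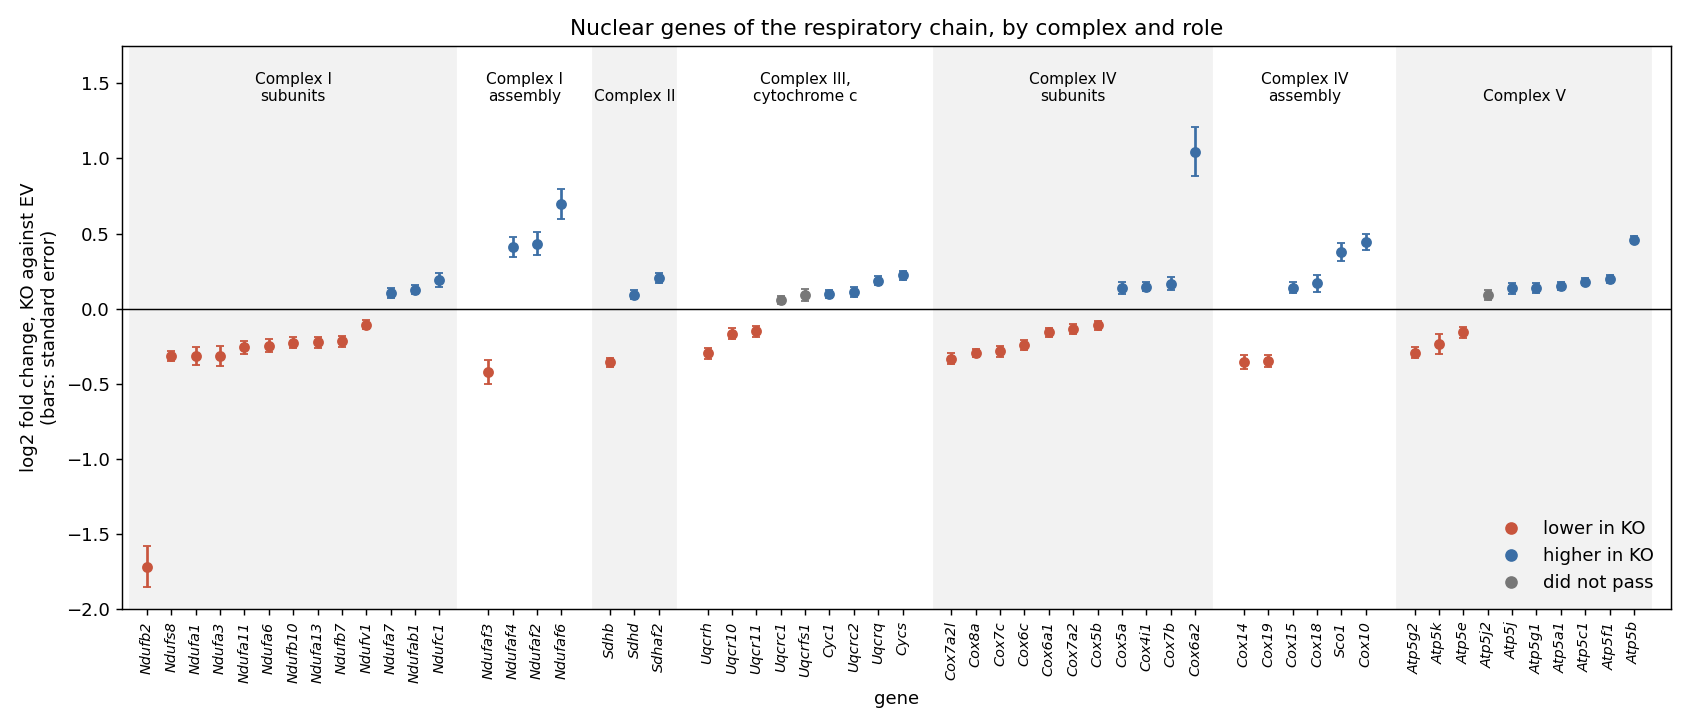
Each point is the log2 fold change of 1 nuclear member in *Hdac3* KO against EV MCECs, with its standard error, sorted within complex and role and coloured by its call at an adjusted p under 0.01. In complex I all plotted subunits but 3 lie below 0, in complex V 7 of 10 lie above 0, and *Ndufb2* (-1.72), *Cox6a2* (1.05) and *Ndufaf6* (0.70) lie outside the band of -0.5 to 0.5 that holds the other members plotted.

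More assembly factors were higher than lower in *Hdac3* KO MCECs. Of 11, 8 were higher (72.7%) and 3 were lower (27.3%), beside 47.1% and 49.6% of all genes, and the median was 0.21. Of 44 nuclear subunits 17 were higher and 24 lower, and the median was -0.12. The difference between the roles was not tested. FPKM uses library totals without TMM factors, a scaling in which the median of all genes moved by -0.12. On that scale the summed level of the 11 assembly factors was lower in KO MCECs, with no overlap. It was 213 ± 2.87 FPKM against 229 ± 6.35 FPKM in EV (SD, n = 4 each). Their share of all reads overlapped between groups. The sum was not computed with TMM factors. With library totals 5 assembly factors and 3 subunits were higher, beside 32.3% of all genes. *Ndufaf6*, a complex I assembly factor on chromosome 4, had 132, 130, 123 and 125 normalized counts in EV libraries 1 to 4 and 229, 174, 200 and 225 in KO libraries 1 to 4. The groups were apart, and the log2 fold change was 0.70 (SE 0.10, adjusted p = 8.2e-08). *Ndufaf4* and *Ndufaf2*, further complex I assembly factors, rose by 0.41 and 0.43, and *Ndufaf3*, a partner of *Ndufaf4*, fell by 0.42. An antisense gene, B230220B15Rik, shares 65.6% of the exonic bases of *Ndufaf2*, so its reads may be of either gene.

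For complex IV, *Cox10*, which makes haem O, had 631, 615, 593 and 691 normalized counts in EV libraries 1 to 4 and 936, 779, 867 and 875 in KO libraries 1 to 4. All KO libraries were higher (log2 fold change 0.44, SE 0.05, adjusted p = 3.1e-09). *Sco1*, a copper chaperone, rose by 0.38. *Cox15*, which turns haem O into haem A, and *Cox18*, which inserts part of *mt-Co2* into the membrane, were higher by 0.14 and 0.17, calls that were lost with library totals, and that of *Cox18* also without EV library 1, 2 or 3 or without KO library 2 (0.13 to 0.17). *Cox14* and *Cox19* fell by 0.35 each.

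Promoters were read for what the nuclear members share at their starts. The factors NRF1, GABPA, YY1 and ERR alpha are textbook regulators of nuclear respiratory genes. A promoter, 250 bases before to 50 after a gene's start in RefSeq (GRCm38.p6), was found for 47 of the 57 nuclear members, and each was searched on both strands for 1 exact spelling of each factor's motif. CGCATGCG (NRF1, which reads the same on both strands) was in 9 of the 47 (19.1%) and in 2.07% of all 27025 genes with a promoter. CCGGAAGT (GABPA) was in 12.8% of the members and 4.31% of all, AAGATGGC (YY1) in 12.8% and 3.19%, and TCAAGGTCA (ERR alpha, gene *Esrra*) in 2.13% and 0.466%. The NRF1 letters stood in 5 of 26 lower and 3 of 18 higher members with a promoter, the GABPA letters in 4 and 2, the YY1 letters in 1 and 4, and the ERR alpha letters in none and 1 (*Sdhd*). These are matches of letters, not tests of binding, and the difference between directions was not tested. The promoters of *Cycs* and *Cox10*, which were higher, and of *Uqcr11* and *Cox8a*, which were lower, are printed to show where the letters sit, with the motifs in capitals. In *Cycs* the NRF1 letters begin 61 bases before the start. In *Cox10* the GABPA letters begin 27 bases before it and the YY1 letters at base 22. In *Uqcr11* the NRF1 and GABPA letters begin 5 and 66 bases before it. In *Cox8a* the GABPA letters lie on the opposite strand (printed as ACTTCCGG), 6 bases before the start and at base 32.
*Cycs*, chr6:50566520-50566819 (-): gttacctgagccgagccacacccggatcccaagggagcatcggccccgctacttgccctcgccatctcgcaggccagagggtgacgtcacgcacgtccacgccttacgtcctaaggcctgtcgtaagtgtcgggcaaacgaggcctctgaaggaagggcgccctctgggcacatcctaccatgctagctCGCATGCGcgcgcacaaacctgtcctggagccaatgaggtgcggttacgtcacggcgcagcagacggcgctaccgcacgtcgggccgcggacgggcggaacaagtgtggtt
*Cox10*, chr11:64079423-64079722 (-): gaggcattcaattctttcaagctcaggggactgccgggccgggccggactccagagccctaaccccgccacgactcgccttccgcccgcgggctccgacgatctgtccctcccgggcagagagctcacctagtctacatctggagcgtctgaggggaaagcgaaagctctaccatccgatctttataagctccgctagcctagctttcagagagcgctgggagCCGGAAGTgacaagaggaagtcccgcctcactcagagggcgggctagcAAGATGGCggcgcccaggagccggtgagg
*Uqcr11*, chr10:80406772-80407071 (-): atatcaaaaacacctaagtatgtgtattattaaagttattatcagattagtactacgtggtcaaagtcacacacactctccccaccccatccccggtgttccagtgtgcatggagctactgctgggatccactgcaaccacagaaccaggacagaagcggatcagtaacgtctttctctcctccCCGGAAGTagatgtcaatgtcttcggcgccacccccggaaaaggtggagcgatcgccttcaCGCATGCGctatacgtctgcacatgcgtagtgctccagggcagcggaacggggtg
*Cox8a*, chr19:7217567-7217866 (-): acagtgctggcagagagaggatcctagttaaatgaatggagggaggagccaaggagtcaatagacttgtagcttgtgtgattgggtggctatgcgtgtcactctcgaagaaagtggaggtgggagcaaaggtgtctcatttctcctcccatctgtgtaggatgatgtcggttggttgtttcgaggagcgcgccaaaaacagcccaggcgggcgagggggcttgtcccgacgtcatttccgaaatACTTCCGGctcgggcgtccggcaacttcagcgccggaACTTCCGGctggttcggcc

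The genes that serve mitochondrial RNA were mostly higher. Of 16 genes for mitochondrial RNA processing and stability in the table (22 written), 15 were higher and none lower, beside 47.1% of all genes higher. The median was 0.39, and 0.06 over all genes. With library totals 8 were higher and none lower, beside 32.3% and 49.8% of all genes. *Trmt10c*, a subunit of the enzyme that cuts transfer RNAs out of mitochondrial transcripts, rose by 0.77, *Ptcd3*, a mitochondrial ribosome protein, by 0.67, and *Tbrg4* by 0.66. *Rexo2*, *Ptcd1* and *Fastkd2* rose least of those past the threshold, by 0.18, 0.19 and 0.21. The groups of *Fastkd2* overlapped (exact permutation p = 0.0571), and *Pnpt1*, at 0.12, did not pass. *Lrpprc* and *Slirp*, partners that stabilise mitochondrial messenger RNAs, rose by 0.37 and 0.45.

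Of 10 genes for mitochondrial DNA maintenance and transcription (21 written), 7 were higher and 2 lower, beside 47.1% and 49.6% of all genes. *Tfam*, which packages mitochondrial DNA and starts its transcription, rose from 1262 ± 11 to 1538 ± 22 normalized counts (SD, n = 4 each), a log2 fold change of 0.29. The mitochondrial protease *Lonp1* rose by 0.78, the nuclease *Mgme1* by 0.78 and the polymerase subunit *Polg2* by 0.38. *Ssbp1*, which coats single-stranded mitochondrial DNA, rose by 0.16, while the nucleoside kinases *Tk2* and *Dguok* fell by 0.27 and 0.26. Among 12 nuclear regulators (20 written), 7 were higher (58.3%) and 4 lower (33.3%). *Ppargc1a*, the coactivator PGC-1 alpha, was low in both groups and fell from 36.6 ± 13.7 to 9.23 ± 3.02 normalized counts (SD, n = 4 each), a log2 fold change of -1.96. *Nrip1* and *Ppargc1b* fell by 0.46 and 0.38. *Myc*, *Nfe2l2* and the coactivator gene *Pprc1* rose by 0.98, 0.69 and 0.44, and *Nrf1*, *Gabpa* and *Yy1* by 0.33, 0.19 and 0.23. Of 17 further assembly factors (37 written), 11 were higher (64.7%) and 6 lower (35.3%). *Tmem70*, *Hccs* and *Higd1a* had the highest values, at 0.52, 0.51 and 0.32, and *Pet100*, *Smim20* and *Cmc1* the lowest, at -0.50, -0.43 and -0.36. With library totals the higher counts of these 3 lists were 3, 6 and 4, and the lower counts were unchanged at 2, 4 and 6. With 32.3% of all genes higher in that scaling, the first and the last of the 3 lists had no larger share of higher genes than the table.

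**Figure D4:**
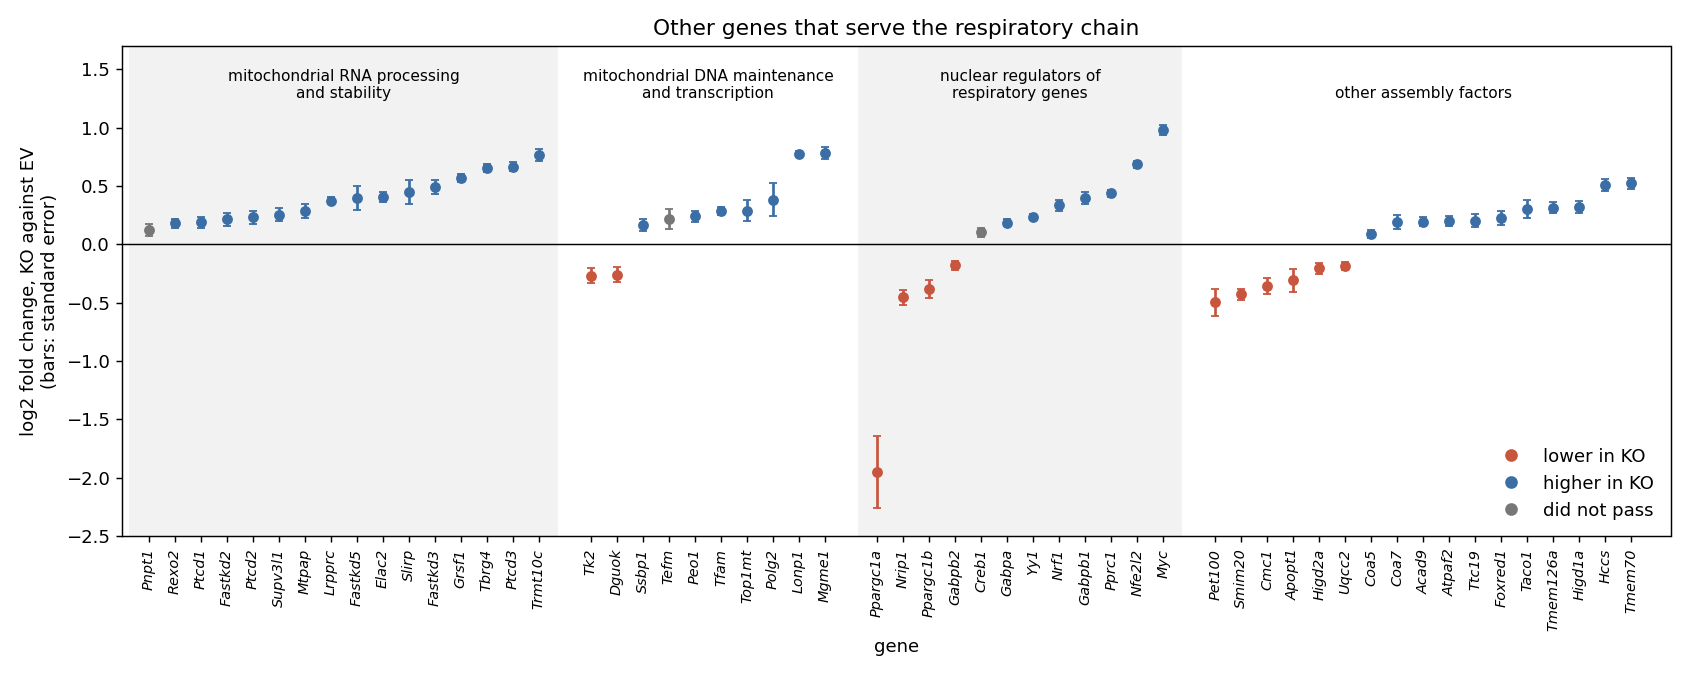
Each point is the log2 fold change, with its standard error, of a gene from 4 lists of genes that serve the respiratory chain, in *Hdac3* KO against EV MCECs. All 16 genes for mitochondrial RNA processing and stability lie above 0 (15 pass the threshold), and *Ppargc1a* is the lowest of all at -1.96.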

How the data were processed

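Gene expression was measured by bulk RNA-Seq in 8 MCEC samples, which the titles divide into 4 *Hdac3* KO and 4 EV. Alignment by the authors was to mm10, by tophat2 and bowtie2. The study's methods name cufflinks and DESeq2 for differential expression and the lumi package for the count matrix. Which program assigned reads to genes, and with which annotation, is not given in the sources used here. The deposited counts give reads per gene without normalization, and FPKM, as the authors deposited it, divides them by gene length and library total. The deposited p-value and adjusted p-value columns, and the fold changes beside them, hold the authors' own comparison and were not used, except to check that all 8278 genes had an adjusted p-value under 0.05. The submitters' processing notes name CASAVA and DESeq 1.6.3.

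Library totals were recovered from count, length and FPKM and multiplied by TMM factors (edgeR 4.0.16, R 4.3.3). The test was edgeR's quasi-likelihood test on all 8278 genes. P-values were adjusted by Benjamini-Hochberg over the whole table, with a threshold of 0.01. No gene was filtered out. The standard error is that of the fitted log2 fold change. Single genes were also compared with the two-sided exact permutation test over 70 arrangements. Without molecular identifiers, the depth of a library limits counting error only. Coordinates are those of the deposited table. Exon overlaps and near-identical copies came from GENCODE M21 (GRCm38) and BLAST 2.17.0. The members and lists were chosen with earlier results of these data known. Members named are all mitochondrial ones, the 4 lowest and 4 highest of each nuclear class, those beyond 1 on the log2 scale and paralog groups. Of each list the 3 lowest and 3 highest past the threshold are named, and *Lrpprc*, *Slirp*, *Tfam*, *Nrf1*, *Gabpa* and *Yy1*, and the members *Ndufa6*, *Ndufa11*, *Ndufa13*, *Ndufb7*, *Ndufb10*, *Uqcrfs1*, *Cox5b* and *Atp5j*, were added after their values were seen. Of the nuclear members, 1 is counted but not plotted or otherwise reported here. The scripts for these tests were first checked on simulated counts with known changes, which enter no result. Alternatives were DESeq2 1.42.0, limma 3.58.1 on log2(FPKM + 1) or (FPKM + 0.1), other scalings, a low-count filter, a replicate block, other thresholds and leaving out each library.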

Additional observations from a re-analysis of the deposited data

Results flagged for a closer look

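Of 138 groups of 4 libraries (69 members, each in EV and in KO), 5 had a library far from the other 3, where chance gives about 1 in 20, or 6.9. In *Cox6a2*, KO library 3 stood at 114 normalized counts, with 77.8 to 82.1 in the remaining 3, and the log2 fold change was 0.90 without it and 1.05 with it. In *Ndufaf4*, KO library 4 had 496 against 440 to 444 (0.37 without it, 0.41 with it). In *Cox8a* the same library had 7939 against 8533 to 8600 (-0.27 and -0.30), and in *Cox5b* 3639 against 3862 to 3880 (-0.09 and -0.11). In *Uqcrq*, EV library 2 had 3409 against 3691 to 3704 (0.16 and 0.19). None of the 5 changed direction without that library, but *Cox5b* did not pass the threshold without it.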

How the results depend on the processing

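The 12 mitochondrial members had values below 0 in every fit and passed the threshold under every scaling tried. With DESeq2 11 passed, with the low-count filter the 11 that it kept passed, 11 passed without EV library 1 and 10 without KO library 3, and 10 passed at an adjusted p under 0.001 and 9 with a fall beyond 0.5. Their median ranged from -0.66 to -0.55 with each library left out and was -0.48 after a loess on GC content and length. With 1 library left out at a time, members lower in KO numbered 37 to 40 and members higher 22 to 27, nuclear members lower 25 to 28 and higher 22 to 27, and the nuclear median ran from 0.05 to 0.07. With the replicate block, 40 members were lower and 27 higher, the medians were -0.59 and 0.06, and no call changed except that *Atp5j2* passed. The deviations of libraries with the same number had a mean correlation of -0.013 over 7533 genes, so the numbers were not taken to pair them.

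Scaling set the direction of the small nuclear changes. Members higher in KO, all of them nuclear, numbered 26, but 9 with library totals without TMM and with limma on log2(FPKM + 1) or log2(FPKM + 0.1), and 13 with upper-quartile factors. The nuclear median turned from 0.06 to -0.06 with totals (-0.0617) and both limma settings (-0.061 and -0.0615) and to -0.01 (-0.0114) with upper-quartile factors; the table's own median moved alike. Without members that share over 5% of their exonic bases with other genes on 1 strand, an alternative added after seeing the data, the nuclear median was -0.11. With a log2 fold change beyond 0.5 required, 10 members were lower and 2 higher, of which 1 and 2 were nuclear. With totals, limma with 1 and limma with 0.1 in turn, these genes reversed: *Atp5j2* to -0.0281, -0.0246 and -0.0246, *Cyc1* to -0.0205, -0.0195 and -0.0196, *Ndufa7* to -0.0143, -0.0122 and -0.0122, *Sdhd* to -0.0258, -0.026 and -0.0262, *Uqcrc1* to -0.0617, -0.061 and -0.0615 (and -0.0114 with upper-quartile factors), and *Uqcrc2* to -0.0057, -0.0054 and -0.0055. The low counts of *mt-Nd4l*, whose cause was not tested, limit its value, and it also missed the threshold with DESeq2. The genes of the table were selected on these libraries, so no count here describes the whole transcriptome.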
